A study of Homo sapiens with 15 samples.

Results

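The immediate early transcription factors examined here are 10 genes, EGR1, FOS, FOSB, FOSL1, JUN, JUNB, JUND, NR4A1, IER2 and CSRNP1. They were taken by gene symbol from the 18338 genes that had a value in all 3 tables of expression values. The list was chosen with earlier results of these data known, so it may not be independent of the values compared below. All 10 had a mean of at least 1 FPKM (fragments per kilobase of transcript, scaled to the size of the library) over the 15 libraries and were among the 11753 genes that were tested.

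RNA-Seq was performed on Biosensor cells, a human embryonic kidney (HEK) line that in every group carried TauRD(P301S)-YFP, the repeat domain of tau with a disease mutation joined to a yellow fluorescent protein. The control group had 5 libraries from cells transfected with brain lysate of wildtype mice, the PS19 group had 5 from cells transfected with brain lysate of PS19 mice, which express human P301S tau in the nervous system from the prion promoter (Prnp), and the thapsigargin group had 5 from cells treated with 0.3 µM thapsigargin, a blocker of the calcium pump of the endoplasmic reticulum (ER) that provokes ER stress. By the study's account, the cells for RNA-Seq were transfected with lysate for a day, and no earlier lysate time was sampled. The sources used here do not give the time in thapsigargin or say whether the thapsigargin cells also received lysate. The brains came from male PS19 mice and wildtype littermates at 6 months of age. The study calls the replicates independent, without saying whether they came from separate cultures or lysates, so each p-value reflects only how much these libraries scatter, part of which may be technical.

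Immediate early genes are transcribed within minutes of a signal from growth factors, calcium or stress by means of factors such as SRF and CREB that are already present in the cell, and their mRNAs are short lived. Many of their products are transcription factors that set off a later wave of genes. FOS and JUN proteins pair through leucine zippers to form AP-1, and EGR1 and NR4A1 are zinc finger proteins. FOS and EGR1 are the best known for brief peaks after a stimulus, whereas JUND is expressed more steadily.

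The summed FPKM over all genes ran from 506146 to 637687 per library, and libraries of a group correlated with r from 0.963 to 0.998 across genes, which are not independent replicates. Of 7 markers of the kidney line, 6 reached 1 FPKM in each group, with LHX1 the exception, and none of 8 glial markers did (summed level 0.72 to 1.76 FPKM over all libraries). Of 6 neuronal markers 3 reached 1 FPKM in each group, GAD1 and SYT1 in all, SLC17A7 in control and PS19 and RBFOX3 in thapsigargin cells. The 6 summed to 9.29 to 11.3 in control, 10.5 to 11.7 in PS19 and 10.2 to 12.5 FPKM in thapsigargin libraries. Most of this was GAD1, with means of 6.51, 7.18 and 7.60 FPKM in these groups, while SNAP25 and STMN2 stayed under 0.1 FPKM. In bulk RNA a smaller number of expressing cells and less mRNA per cell cannot be told apart. The study states a general read number per sample, but the exact reads of each library cannot be derived from FPKM, so counting error was not estimated.

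Promoter sequences show which known binding motifs the members carry. Windows are printed for EGR1 and JUND, which hold the rarer motifs, and for FOS, FOSB and JUN, whose products form AP-1. RefSeq (GRCh38.p14) gave 11 promoters for 9 of the 10 members, each from 250 bases before to 50 bases after the gene start. FOSL1 had no entry. Both strands were searched for the CArG box, to which SRF binds, and for TGACGTCA, the full cAMP response element (CRE) to which CREB and ATF proteins bind, with its core TGACG, which lies inside every full element. EGR1 alone among the 9 members with an entry had a CArG box in this stretch, and it had 2, starting at positions -105 and -83 relative to the gene start. Sequence farther from the gene start was not searched, so other members may carry these motifs there. A CArG box was present in 1.29% of the 35116 promoters in the table. In the EGR1 windows, from the plus strand of chr5:138465364-138465393 and chr5:138465386-138465415, capitals mark the CArG box.

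EGR1, distal CArG box: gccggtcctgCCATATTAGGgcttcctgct
EGR1, proximal CArG box: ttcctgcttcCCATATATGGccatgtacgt

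JUND alone among these 9 members had a full CRE, at position -200, in the minus-strand window chr19:18281804-18281833. The full element was present in 1.85% of all promoters. FOS, FOSB and JUN each had 1 TGACG core, in chr14:75278752-75278781 (plus strand), chr19:45467924-45467953 (plus strand) and chr1:58784153-58784182 (minus strand). The core was present in 24.6% of all promoters. Capitals mark the match in each.

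JUND, full CRE: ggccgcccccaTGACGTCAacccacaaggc
FOS, core: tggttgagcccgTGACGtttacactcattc
FOSB, core: gcaaggggcgggTGACGtaagcaggggggc
JUN, core: gagtctccatggTGACGggcgggcccgccc

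EGR1 also had 2 TGACG cores, JUNB and IER2 had 1 each, and CSRNP1 had 2 in the more downstream of its 2 promoters. Outside its full CRE, JUND had a further core at position -86. Neither NR4A1 promoter had any of these matches. A search for TGANTCA, the site that AP-1 itself binds (7.71% of all promoters), found it in none of the 11 promoters. A match in these windows is a description of letters and was not tested for binding.

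The 10 members spanned a wide range of levels in control cells. JUN, with a mean of 77.7 ± 11.6 FPKM (SD, n = 5), was above 91.0% of the tested genes, and FOSL1, with 1.50 ± 0.391 FPKM, was near the 1 FPKM minimum for testing. Because FPKM is scaled by transcript length, levels can be compared between genes. From high to low the order in control was JUN, JUND, IER2, JUNB, NR4A1, CSRNP1, EGR1, FOS, FOSB and FOSL1. JUN lay above every other member in every library of its group. The ranges of each other pair of neighbours overlapped, except those of NR4A1 and CSRNP1. The order in PS19 cells was the same but for FOSB and FOSL1, which exchanged places. In thapsigargin cells EGR1 moved from the 7th place to the 10th and FOSL1 from the 10th to the 7th. JUNB and NR4A1 exchanged the 4th and 5th places there.

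**Figure D1:**
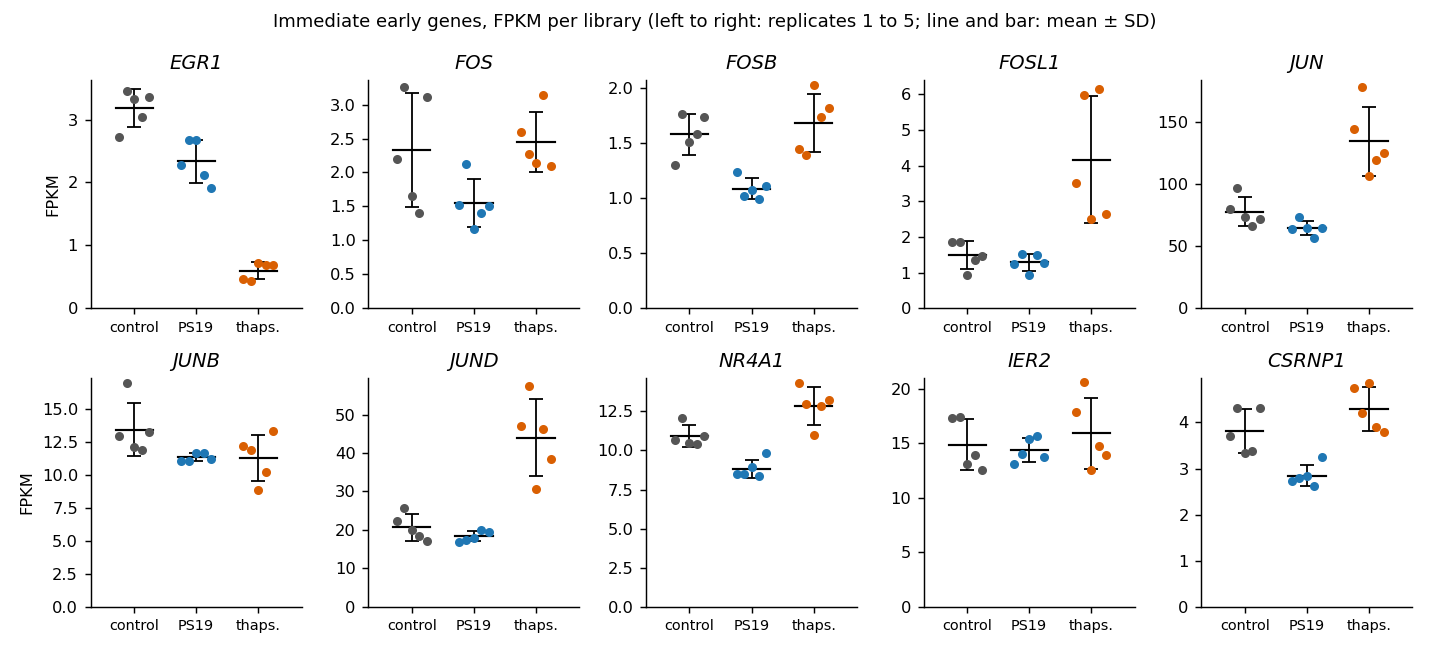
Level of each member in FPKM (vertical axes, from 0) in the 5 control, 5 PS19 and 5 thapsigargin libraries, 1 point per library, with lines and bars for the mean ± SD. EGR1 was at 0.44 to 0.72 FPKM in thapsigargin cells against 2.72 to 3.45 FPKM in control cells, while JUN, JUND and FOSL1 were higher in every thapsigargin library than in any control library.

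The first comparison asked whether lysate that seeds tau aggregates changed the expression of these genes relative to wildtype lysate. Every member had a lower mean in PS19 than in control cells, but none of the 10 passed the test across all genes at an adjusted p of 0.1 (limma on log2(FPKM + 0.5), two-sided, adjusted over the 11753 genes by the Benjamini-Hochberg method). In that comparison 0.0425% of all genes were called, which is 5 genes, 2 higher and 3 lower. At an unadjusted p under 0.05 there were 7 of the 10 members, all lower, against 3.50% of all genes that were lower at that level. The groups did not overlap for 5 members, EGR1, FOSB, JUNB, NR4A1 and CSRNP1, with PS19 below control, which was the case for 0.579% of all genes. The median log2 fold change was -0.28 over the members and -0.015 over all genes, of which 57.1% were below 0.

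NR4A1, an orphan nuclear receptor also known as NUR77, had the smallest p of the members and ranked 13th of all genes. Its level was 10.66, 12.09, 10.49, 10.44 and 10.91 FPKM in control replicates 1 to 5 and 8.48, 8.51, 8.95, 8.37 and 9.81 FPKM in PS19 replicates 1 to 5. All PS19 libraries lay below all control libraries, with control 2 the highest. The log2 fold change was -0.29 (SE 0.063, limma adjusted p = 0.245).

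CSRNP1, a nuclear protein named for its cysteine and serine rich domain, was at 3.70, 4.32, 3.34, 3.38 and 4.32 FPKM in control and at 2.73, 2.80, 2.83, 2.63 and 3.25 FPKM in PS19 libraries. The groups were separate, with the highest PS19 library, replicate 5, just under the lowest control library. The log2 fold change was -0.36 (SE 0.086, limma adjusted p = 0.356).

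FOSB, which lacks a transactivation domain in its short splice form, was at 1.30, 1.76, 1.51, 1.58 and 1.73 FPKM in control and 1.24, 1.02, 1.07, 0.99 and 1.11 FPKM in PS19 libraries. The groups were separate by a narrow gap between the lowest control and the highest PS19 library, both numbered 1. The log2 fold change was -0.39 (SE 0.088, limma adjusted p = 0.285).

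EGR1, which binds GC-rich sites in promoters, was at 2.72, 3.45, 3.33, 3.04 and 3.36 FPKM in control and at 2.28, 2.68, 2.68, 2.12 and 1.92 FPKM in PS19 libraries. The lowest control library, replicate 1, lay just above the 2 highest PS19 libraries. Its log2 fold change was -0.38 (SE 0.092, limma adjusted p = 0.397).

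FOS, the founding AP-1 partner of JUN, had the lowest fold change of the members, -0.43, and also the largest standard error among them, 0.17 (limma adjusted p = 0.809). Its control libraries stood at 2.20, 3.26, 1.65, 1.41 and 3.11 FPKM and its PS19 libraries at 1.52, 2.13, 1.17, 1.41 and 1.50 FPKM. The control values split widely, replicates 1, 2 and 5 lying above all PS19 libraries and replicate 4 level with PS19 replicate 4.

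The JUN genes differed less. JUN, the strongest transactivator among them, was at 77.7 ± 11.6 FPKM in control and 64.5 ± 5.92 FPKM in PS19 cells (log2 fold change -0.26, 95% interval -0.44 to -0.074). JUND was at 20.7 ± 3.45 and 18.4 ± 1.27 FPKM (-0.15, -0.35 to 0.040). JUNB, a weaker activator that can hold back JUN, was at 13.5 ± 2.04 and 11.4 ± 0.304 FPKM (-0.22, -0.39 to -0.055). FOSL1, the Fos-related protein FRA1, and IER2, a small nuclear protein, had intervals that included 0, with -0.14 (-0.43 to 0.15) and -0.035 (-0.23 to 0.16).

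Control library 2 stood apart in this comparison. It held the highest control value of all 10 members, a place it shared with control 5 for CSRNP1, and the median deviation of the members from the control mean was 0.25 on the log2 scale in that library. Without it the median log2 fold change of the members was -0.22 and none was called. Without control libraries 1 and 2, which is a choice made after seeing the data, 2438 of all genes were called in place of 5, 877 higher and 1561 lower. The members called lower were CSRNP1, EGR1, FOSB and NR4A1. In that fit the median of the members was -0.19. EGR1 and FOSB were at -0.41 each, whereas JUND was at -0.0043, FOSL1 at 0.037 and IER2 at 0.12. With values corrected for GC content, transcript length and level, also chosen after seeing the data, NR4A1 alone was called lower among the members (adjusted p = 0.0302, 24 genes in all). The part of the control libraries in the PS19 difference was not tested further.

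**Figure D2:**
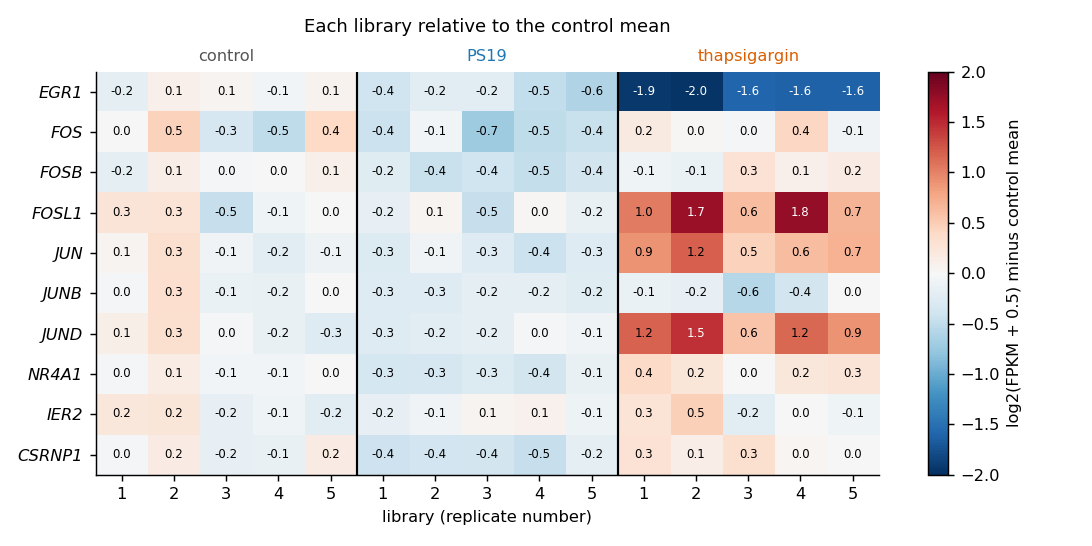
Log2(FPKM + 0.5) of each member (rows) in each of the 15 libraries (columns, by group and replicate number) minus the mean of the 5 control libraries, red for higher and blue for lower. The column of control 2 is above 0 for all 10 members, and the EGR1 row is lowest in the thapsigargin libraries.

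The second comparison asked how the members behaved in cells under ER stress. In thapsigargin cells JUND, JUN and FOSL1 rose to 2.13, 1.73 and 2.78 times the control mean, EGR1 fell to 0.189 of it, and the other members had smaller changes or did not pass the test. In all, 4 members were called higher (FOSL1, JUN, JUND and NR4A1) and 2 lower (EGR1 and JUNB), where 26.0% of all genes were called higher and 43.4% lower. Without overlap between groups 3 members were higher and EGR1 was lower, against 14.7% and 25.3% of all genes. The median log2 fold change was 0.13 over the members and -0.13 over all genes, and median-ratio scaling between libraries moved the latter to -0.002, so changes relative to the median of all genes are also given.

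EGR1 had the largest change of the members. It was at 0.46, 0.44, 0.72, 0.69 and 0.69 FPKM in thapsigargin replicates 1 to 5, each far below the lowest control library, 2.72 FPKM. The mean fell from 3.18 ± 0.300 to 0.60 ± 0.138 FPKM (n = 5 each), a ratio of 0.189. The pseudocount is close to the thapsigargin level of EGR1 and shrinks its fold change. On the log2(FPKM + 0.5) scale EGR1 fell by 1.75 (SE 0.11, limma adjusted p = 1.68e-07), or by 1.62 relative to the median of all genes. Over TPM, median-ratio and quantile scaling the log2 fold change of EGR1 ran from -2.11 to -1.44.

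FOSL1 moved the other way. Its level was 1.86, 1.87, 0.93, 1.36 and 1.47 FPKM in control and 3.53, 5.99, 2.50, 6.15 and 2.66 FPKM in thapsigargin libraries. The groups were separate but the thapsigargin libraries were scattered, with replicates 2 and 4 well above the other 3. FOSL1 rose by 1.16 on the log2 scale (SE 0.23, limma adjusted p = 0.00121), 1.29 relative to all genes.

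JUND was at 22.28, 25.77, 19.89, 18.36 and 17.05 FPKM in control and at 47.00, 57.47, 30.74, 46.17 and 38.47 FPKM in thapsigargin libraries. The lowest thapsigargin library, replicate 3, was above the highest control library. JUND rose by 1.06 (SE 0.16, limma adjusted p = 0.00016), 1.18 relative to all genes. Its transcript has a GC content of 69.9%, the highest of the members, against a median of 48.6% over the tested genes. In this comparison the median log2 fold change of all genes went from -0.28 in the fifth of genes with the lowest GC content to 0.18 in the fifth with the highest. After the correction for GC content, length and level the log2 fold change of JUND was 0.67, still called (adjusted p = 1.15e-05).

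JUN, the most abundant member, was at 80.01, 96.63, 73.59, 66.30 and 72.02 FPKM in control and at 143.73, 177.49, 106.25, 118.84 and 125.01 FPKM in thapsigargin libraries. Again no thapsigargin library came as low as the highest control library, which was replicate 2 in both groups. JUN rose by 0.77 (SE 0.14, limma adjusted p = 0.000519), 0.90 relative to all genes, and by 0.79 after the GC correction.

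NR4A1 rose by 0.22 (SE 0.084, limma adjusted p = 0.0344), from 10.9 ± 0.680 to 12.9 ± 1.21 FPKM, with replicate 3 of thapsigargin, at 10.97 FPKM, inside the control range. The call was lost after rescaling to TPM (adjusted p = 0.488) and without control libraries 4 and 5 (adjusted p = 0.142). JUNB fell by 0.24 (SE 0.12) with overlapping groups and an adjusted p of 0.0994, just inside the threshold, and the call was lost in 14 of 25 alternative settings. Relative to all genes JUNB was at -0.12. After the correction for GC content, length and level, chosen after seeing the data, JUNB fell by more, to a log2 fold change of -0.52 (limma adjusted p = 0.000493).

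FOS, FOSB, IER2 and CSRNP1 did not pass the test. Their log2 fold changes were 0.10 for FOS (95% interval -0.30 to 0.50), 0.067 for FOSB (-0.16 to 0.30), 0.087 for IER2 (-0.22 to 0.39) and 0.16 for CSRNP1 (-0.068 to 0.38). FOS reached 2.60, 2.27, 2.14, 3.14 and 2.09 FPKM in thapsigargin libraries, inside the control range of 1.41 to 3.26 FPKM. CSRNP1 was called higher with median-ratio scaling, quantile normalization and the GC correction, and FOSB with quantile normalization, while rescaling to TPM put FOS, FOSB and IER2 below 0.

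**Figure D3:**
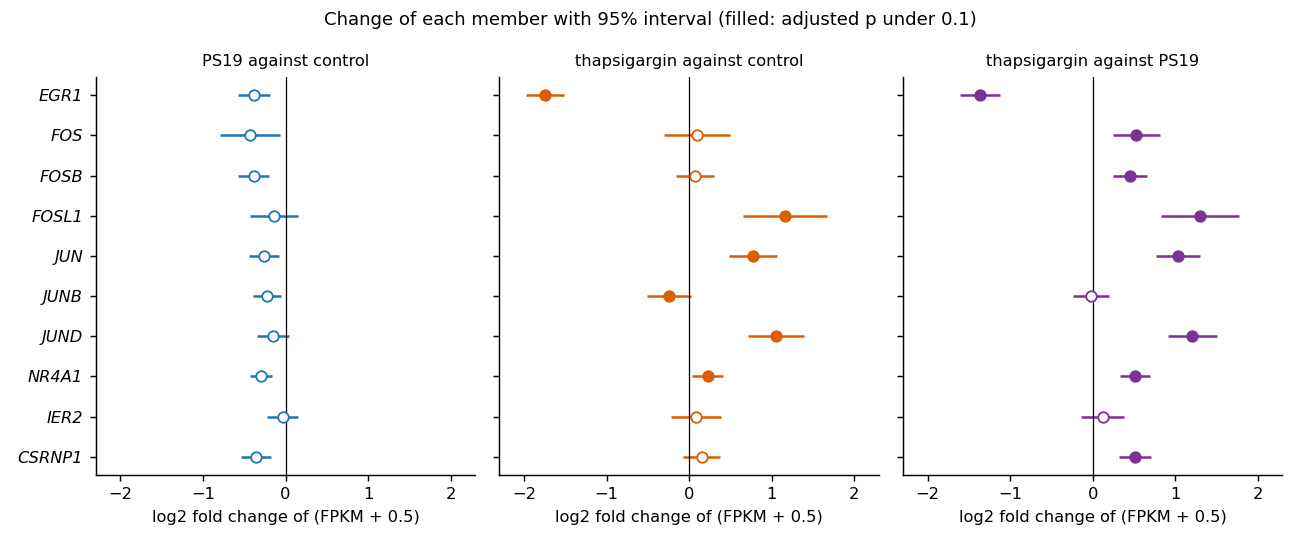
Log2 fold change of (FPKM + 0.5) of each member with its 95% interval, in PS19 against control, thapsigargin against control and thapsigargin against PS19 (5 libraries in each group). Filled points have a limma adjusted p under 0.1. None is filled for PS19 against control, 6 for thapsigargin against control and 8 for thapsigargin against PS19, and JUNB in the middle panel is filled although its 95% interval reaches 0.022.

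The third comparison set thapsigargin directly against PS19, which also tests whether both effects against the shared control libraries differ. They differed for 8 members. EGR1 was lower in thapsigargin than in PS19 cells, and FOS, FOSB, FOSL1, JUN, JUND, NR4A1 and CSRNP1 were higher, where 25.8% of all genes were called higher and 42.2% lower. The groups did not overlap for 6 of the 7 that were higher, against 15.6% of all genes, FOS being the exception through PS19 replicate 2 at 2.13 FPKM, and not for EGR1, as for 27.4% of all genes that were lower.

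The sizes ranged widely. FOSL1 was higher by 1.30 (SE 0.22, limma adjusted p = 0.000359), JUND by 1.21 (SE 0.14) and JUN by 1.03 (SE 0.12), whereas FOS, NR4A1, CSRNP1 and FOSB were higher by 0.53, 0.52, 0.52 and 0.45. EGR1 was lower by a difference of -1.37 (SE 0.11, limma adjusted p = 1.92e-06). JUNB, at 11.4 ± 0.304 FPKM in PS19 and 11.3 ± 1.77 FPKM in thapsigargin cells, had a difference of -0.020 with an interval from -0.24 to 0.20, and IER2 had 0.12 (-0.14 to 0.38). FOS, FOSB and CSRNP1 thus passed this test without passing either test against control.

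As AP-1 is a pair of proteins, the mRNA levels of its subunits were also added up. The 3 JUN genes summed to 112 ± 16.8 FPKM in control, 94.3 ± 5.04 FPKM in PS19 and 190 ± 37.9 FPKM in thapsigargin cells (SD, n = 5), and the lowest thapsigargin library (145.87 FPKM) was above the highest control library (139.38 FPKM). The 3 FOS genes among the members summed to 5.40 ± 1.21, 3.93 ± 0.540 and 8.29 ± 1.96 FPKM. JUN mRNA exceeded FOS mRNA by a ratio of 21.2 ± 3.47 in control, 24.3 ± 3.14 in PS19 and 23.4 ± 4.67 in thapsigargin cells, and these ranges overlapped. FOSL2, the FOS gene that is not a member and was named for this sum alone, was at 1.53 ± 0.252, 1.13 ± 0.149 and 1.78 ± 0.0970 FPKM in the 3 groups. With FOSL2 the FOS sums were 6.93, 5.06 and 10.1 FPKM and the ratios 16.4 ± 2.38, 18.8 ± 2.12 and 19.1 ± 3.43, again overlapping.

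The make-up within each family shifted in thapsigargin cells. FOSL1 was 27.8 ± 5.15% of the FPKM of the 3 FOS genes in control, 32.9 ± 3.35% in PS19 and 48.5 ± 10.3% in thapsigargin cells, where its lowest share (37.5%) was above the highest share in control (34.7%) but under the highest in PS19 (38.3%). With FOSL2 in the sum the shares of FOSL1 were 21.6 ± 4.56%, 25.5 ± 2.84% and 39.9 ± 10.0%, and the lowest share in thapsigargin cells (30.01%) was above the highest in control (28.6%) and in PS19 cells (29.9%). JUNB was 12.1 ± 0.683% of JUN-family FPKM in control, 12.1 ± 0.854% in PS19 and 6.06 ± 0.980% in thapsigargin cells, and its highest share in thapsigargin cells (7.57%) was below its lowest elsewhere (10.9%). JUN itself had mean shares of 69.5%, 68.3% and 70.8%. The shares of JUND were 18.5 ± 1.05%, 19.6 ± 2.05% and 23.1 ± 2.03%. Its lowest share in thapsigargin cells (21.1%) was above the highest in control (19.3%) but under the highest in PS19 (22.5%).

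**Figure D4:**
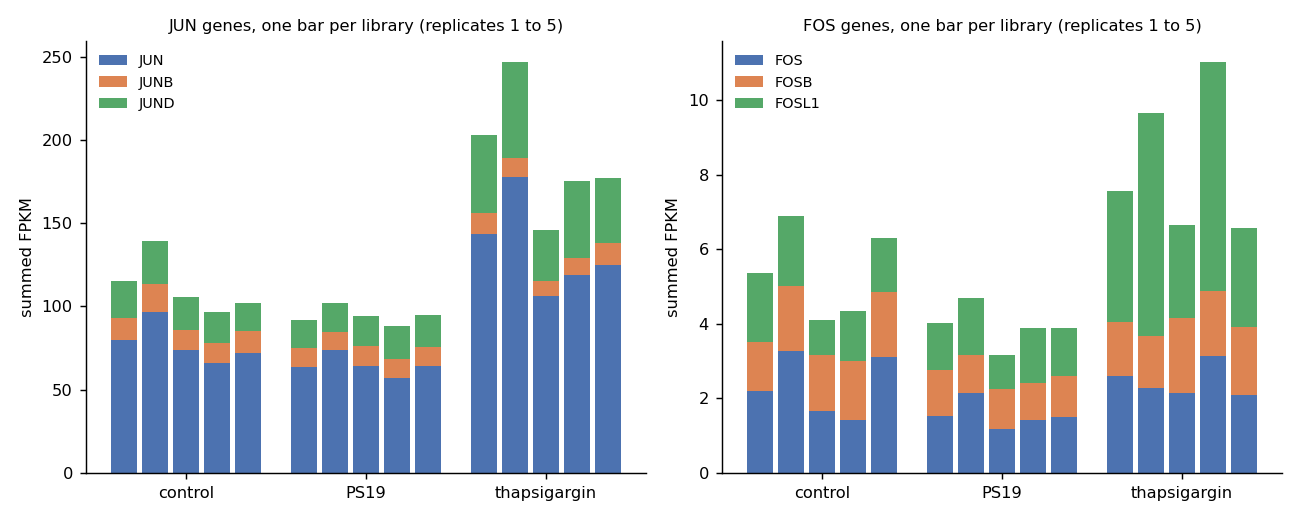
Summed FPKM (vertical axes, from 0) of the 3 JUN genes and of the 3 FOS genes, 1 stacked bar per library in the order of replicates 1 to 5 within each group. The JUN bars of all 5 thapsigargin libraries (145.87 to 246.88 FPKM) are taller than any control bar, with a thinner JUNB layer, and the FOSL1 layer is the widest part of all 5 FOS bars in thapsigargin cells.

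The regulators and partners of these genes were described from lists of related genes. In thapsigargin against control, the list of SRF, its cofactors and CREB had 9 of 14 tested genes lower and 1 higher, with a median of -0.43 against -0.13 over all genes. SRF itself, which binds CArG boxes, fell from 41.1 to 26.1 FPKM (log2 fold change -0.65, limma adjusted p = 0.000232). ELK3, an ETS partner of SRF, fell by 1.52, and MRTFB, an actin-regulated cofactor of SRF, fell by 1.25. CRTC3, a coactivator of CREB, fell by 0.53. Of the MAP kinase cascade, which carries growth factor and stress signals to these factors, 20 of 29 genes were lower and 3 higher, with a median of -0.48. The kinases of smallest p, MAP2K3, MAP2K6, MAP3K5 and MAPK14 (p38 alpha), fell by 1.12, 1.09, 0.83 and 0.89.

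Of the feedback inhibitors of MAP kinase signalling 7 of 11 were lower and 2 higher. The phosphatases DUSP8 and DUSP14 rose by 0.66 and 0.41, and SPRED1 and SPRED2, inhibitors of RAF activation, fell by 0.49 and 0.46. Of the list of AU-rich mRNA decay factors and EGR repressors 7 of 11 were lower and 1 higher, among them NAB1, a corepressor of EGR1, which fell by 0.59, the decapping enzyme DCP2 (-0.70), the mRNA stabiliser ELAVL1 (-0.33) and the deadenylase scaffold CNOT1 (-0.67). These shares stand beside 43.4% of all genes called lower, and no list was tested as a set.

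Of other AP-1 dimer partners 2 of 9 were higher and 4 lower, shares near the 26.0% and 43.4% of all genes. JDP2, which pairs with JUN and represses AP-1 sites, rose from 4.57 to 14.4 FPKM (log2 fold change 1.55, limma adjusted p = 2.22e-06), and CREB5 rose by 0.50, whereas MAF fell by 0.93. Among 17 tested immediate early transcription factors outside the members 5 were higher and 5 lower, beside the same 26.0% and 43.4% of all genes. ATF3, a stress-induced AP-1 partner that the study itself follows as a PERK-regulated gene, rose by 1.08, and NR4A2, a close relative of NR4A1, rose by 0.55, while the helix-loop-helix repressors BHLHE40 and ID2 fell by 1.13 and 0.46. Of 14 other immediate early genes 4 were higher and 6 lower, shares close to those of all genes, with GEM, a small GTP-binding protein (1.52), and PPP1R15A, the eIF2alpha phosphatase subunit GADD34 (1.32), higher and the growth inhibitors BTG2 (-0.97) and ERRFI1 (-1.01) lower.

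In PS19 against control ATF3 was the only gene called among these 7 lists, at 12.2 FPKM against 19.9 FPKM in control (log2 fold change -0.66, SE 0.11, limma adjusted p = 0.0663). No gene of its list was called in 16 of 25 alternative settings, among them 9 of the 10 that left out a library. The list medians ran from -0.11 to -0.036, nearer to the all-gene median of -0.015 than the -0.28 of the members. Immediate early transcription factors outside the members were below 0 for 16 of 17 genes and other immediate early genes for 14 of 14, but so were 13 of 14 of the SRF and CREB list, 10 of 11 feedback inhibitors, 9 of 11 of the decay and repressor list, 7 of 9 AP-1 partners and 20 of 29 MAP kinase genes, against 57.1% of all genes. The smallest p in each list without a call belonged to CYR61, a secreted matricellular protein (-0.22), MAF (0.14), CREM (-0.16), MAP2K1 (-0.15), DUSP8 (-0.22) and ZFP36L1, a protein of AU-rich mRNA decay (-0.19). Of all lists 22 genes with means under 1 FPKM were not tested, including EGR2, EGR3, EGR4 and NR4A3.

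**Figure D5:**
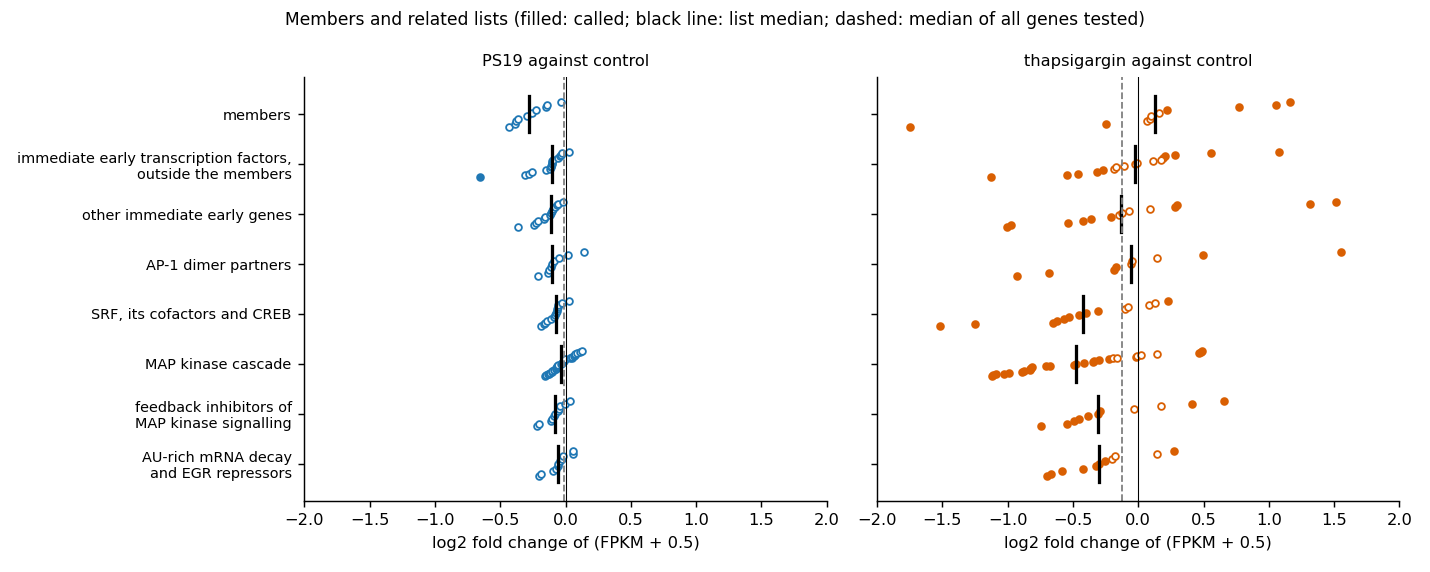
Log2 fold change of (FPKM + 0.5) of the members and of the tested genes of 7 related lists, in PS19 against control (left) and thapsigargin against control (right), 1 point per gene, filled where the limma adjusted p is under 0.1. Black lines are list medians and dashed lines the median of all genes. On the left the members' median (-0.28) is the farthest from the dashed line, and on the right the medians of SRF, its cofactors and CREB (-0.43) and of the MAP kinase cascade (-0.48) lie lowest.

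The genes whose log2 profile over the 15 libraries was most like that of EGR1, by the root mean square difference of centred log2(FPKM + 0.5) values, included DNAJB1, a heat shock cochaperone (0.221), and TIMP2, a metalloproteinase inhibitor (0.222), where the spread of EGR1 itself was 0.764. Both had lower means in thapsigargin cells than in control and PS19 cells, DNAJB1 at 80.2, 83.2 and 31.0 FPKM in control, PS19 and thapsigargin cells. For JUN, with a spread of 0.479, they were NPPC, a natriuretic peptide precursor (0.133), NFKB2, an NF-kappaB subunit (0.139), and CPLX1, a regulator of vesicle fusion (0.140). FOS, with a smaller spread of 0.360, was matched less closely, by C11orf96 (0.240), CSRNP1 (0.243) and ANXA1 (0.245), and CSRNP1 is itself a member.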

How the data were processed

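RNA-Seq values of 15 Biosensor cell libraries, 5 per group by the labels, were analysed. The authors filtered reads with SOAPnuke, mapped the reads to GRCh38.p12 using HISAT2 2.0.4 and quantified genes with RSEM 1.2.12 (versions from the submitters' processing notes, which also list DESeq2 1.4.5), and deposited FPKM values without stated scaling between libraries. All 15 value columns were used. Overflowed annotation text in 1 control column was dropped, and 26 symbols turned into dates were restored from gene IDs. Whole reads could not be recovered from the FPKM values (at most 26.9% of low values within 0.1 reads of a whole multiple, against 20% if unrelated).

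Groups were compared pairwise on log2(FPKM + 0.5) by two-sided moderated tests in limma 3.58.1 (R 4.3.3), the prior variance following the mean level. Genes averaging 1 FPKM or more were tested, and p-values were adjusted by Benjamini-Hochberg at 0.1 over all tested genes. No member needed a separate permutation test, since all passed this filter. The fit was checked on simulated data with noise independent between genes, so shifts shared by many genes of a library were not covered. False calls were 11.1% of calls for PS19 against control, 9.15% for thapsigargin against control and 12% for thapsigargin against PS19. Of simulated log2 changes of 0.3, 70.6%, 23.5% and 25% were called in these comparisons. Each simulation changed 200 of the 11753 genes, whereas 5 genes were called in PS19 against control. The Benjamini-Hochberg cutoff depends on how many genes change, so these shares do not give the share that would be found in the data themselves. GC content came from transcripts of an annotation of another build, matched by symbol (98.6% of tested genes). Promoters came from RefSeq.

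All members were named, with up to 4 called genes of smallest p per list and comparison, the gene of smallest p where a list had no call, and the 3 genes of nearest profile for EGR1, FOS and JUN. Some genes that this rule takes are not reported here. Members and lists were chosen with earlier results of these data known. Alternatives covered the pseudocount, filter, TPM, median-ratio and quantile scaling, all libraries in 1 fit, a replicate block, variance options, a threshold of 0.05 and each library left out, and, chosen after seeing the data, fits without control libraries 1 and 2 or 4 and 5 and a GC, length and level correction.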

Additional observations from a re-analysis of the deposited data

Results flagged for a closer look

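Among the 30 sets of 5 libraries formed by the 10 members in 3 groups, 2 held a library far from the other 4 by Dixon's test (gap over range above 0.71). Both were control replicate 2, for JUNB at 16.98 FPKM (gap over range 0.734) and for NR4A1 at 12.09 FPKM (0.715). Chance alone puts about 1 in 20 such sets past this limit. The same library was the highest control library for the other 8 members too, tied for CSRNP1, and its part in the lower PS19 values was measured only by leaving it out. Without it, the median log2 fold change of the members in PS19 against control was -0.22 and no member was called by limma.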

How the results depend on the processing

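In PS19 against control no member was called with any library left out or in any other alternative, with 2 exceptions. The GC, length and level correction gave 1 member called lower (10 genes higher and 14 lower in all), and the fit without control libraries 1 and 2 gave 4 (877 higher and 1561 lower), both chosen after seeing the data. The count over all genes, 2 higher and 3 lower, was 0 and 0 with TPM and with all libraries in 1 fit, 0 lower without a filter and at the 0.05 threshold, and 1 lower with median-ratio scaling and without the trend. With each library left out it was 0 to 3 higher and 0 to 10 lower, the highest without control replicate 1. Same-numbered libraries did not deviate together in all pairs of any comparison. With the replicate block the counts were 6 higher and 7 lower, and no call among the members changed in any comparison. IER2 turned to 0.12 and FOSL1 to 0.037 without control libraries 1 and 2, and IER2 ranged from -0.091 to 0.024 with libraries left out.

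In thapsigargin against control the count of members called lower was 1 in place of 2, through JUNB, without a filter, with median-ratio and quantile scaling, without the trend, with robust variances, at 0.05 and without either pair of control libraries, and 1 to 2 with libraries left out. At a 5 FPKM minimum it was also 1, JUNB, as EGR1, FOS, FOSB, FOSL1 and CSRNP1 were not tested. FOS, FOSB and IER2 turned to -0.031, -0.064 and -0.072 with TPM, and IER2 to -0.14 with the GC correction and -0.013 without control libraries 4 and 5. With libraries left out FOS ranged from -0.027 to 0.22 and IER2 from -0.0086 to 0.16. EGR1, FOSL1, JUN and JUND were called in the same direction in every alternative in which they were tested.

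In thapsigargin against PS19 the 5 FPKM minimum left 3 members called higher and 0 lower, in all 3. JUNB turned to 0.090 with median-ratio and 0.098 with quantile scaling, ranged from -0.081 to 0.060 with libraries left out and was called lower with the GC correction (2 members lower), and IER2 turned to -0.013 with TPM and -0.080 with the GC correction. The cause of these shifts was not tested. The study states a general read number per sample, but the exact depth of each library is unknown. For members near 1 FPKM (FOS, FOSB, FOSL1, and EGR1 in thapsigargin cells) the counting error behind each value was therefore not estimated.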
